A study of Mus musculus with 6 samples.

Results

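The RNA of 10 genes of the nuclear arm of Notch signalling was followed, taken by symbol from a list of pathway roles that was drawn up with earlier results of these data known: the DNA-binding factor Rbpj, the Mastermind coactivators Maml1, Maml2 and Maml3, the Hes and Hey repressors Hes1, Hes6, Hey1, Hey2 and Heyl, and the feedback inhibitor Nrarp. All 10 were found among the 55334 gene rows of the deposited table, with 1 row each. The cells were Lewis lung carcinoma (LLC), a mouse lung cancer line that carried green fluorescent protein (GFP). In the JAG2KO group the cells carried a guide RNA for Jag2, which encodes a Notch ligand, and in the Scramble group they carried a scrambled guide. Both groups were grown as flank tumours in mice, dissociated with Liberase at endpoint and sorted as GFP-positive, CD45-negative and DAPI-negative cells, so every library comes from tumours and none from cultured cells. Each group had 3 polyA RNA libraries. The sources used here do not give the guide sequence, whether each line is 1 clone, or the strain and age of the mice. Whether the libraries of a group stem from different mice is not stated either. All p-values thus rest on the scatter of these libraries alone, and that scatter may be technical.

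When a ligand such as Jagged2 on one cell binds a Notch receptor on its neighbour, the receptor is cut and its intracellular domain moves to the nucleus. There it binds RBPJ, which sits on DNA, and a Mastermind protein joins the pair and brings in histone acetyltransferases, so that target genes are transcribed. Without the intracellular domain, RBPJ instead holds corepressors. The best known direct targets are the Hes and Hey genes, which encode basic helix-loop-helix repressors, and Nrarp, whose ankyrin-repeat product binds the Notch complex and limits it.

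The libraries held 37036772 to 42914376 counts in JAG2KO and 39448304 to 43923565 counts in Scramble, and 3 counts were worth 0.068 to 0.0811 CPM (counts scaled to library size, with the sizes adjusted by the trimmed mean of M values, TMM). JagKO2 stood apart from the other JAG2KO libraries: chi-square per degree of freedom was 31 against JagKO3 and 25.4 against JagKO4, while JagKO3 and JagKO4 differed by 14 and Scramble pairs by 12.2 to 15. Without JagKO2 the same number of the 10 genes was called in each direction, 4 higher and 1 lower. Jag2 itself measured 0.514, 0.799 and 1.11 CPM in the JAG2KO libraries JagKO2, JagKO3 and JagKO4, against 1.52, 1.10 and 1.02 CPM in Scramble replicates 1, 2 and 3 (edgeR adjusted p = 0.318), so the groups overlapped and the targeted gene's RNA does not check the labels. Of the lung epithelial and keratin markers, Krt18 was abundant in every library, with 279.5 to 332 CPM in JAG2KO and 259 to 273 CPM in Scramble. Krt8 averaged 4.13 ± 0.84 CPM in JAG2KO and 124 ± 4.60 CPM in Scramble (SD, n = 3 each), with a log2 fold change of -4.90, and Krt19 averaged 0.47 ± 0.127 CPM in JAG2KO and 1.38 ± 0.0777 CPM in Scramble (-1.55). Of the 8 epithelial and keratin markers 6 were tested, with 0 higher and these 2 lower by edgeR. Over all tested genes 11.8% were higher and 12.5% lower. The lung transcription factor gene Nkx2-1 had 0 counts in all 6 libraries, the surfactant gene Sftpc had 2 counts in JagKO2 and 0 elsewhere, and Epcam stayed at or below 1.45 CPM. Krt18, Nkx2-1, Sftpc and Epcam were named after their values were seen.

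Of the 10 genes, 9 passed the filter on low counts and were tested, and Hey2 did not. By edgeR's quasi-likelihood test with Benjamini-Hochberg adjustment over all 16049 tested genes, 4 were higher in JAG2KO, 1 was lower and 4 did not pass the threshold of 0.05. Across all tested genes 11.8% were called higher, 12.5% lower and 24.3% in either direction, so a call in this comparison was common. The groups did not overlap for 6 of the 9 tested genes, against 40.3% of all tested genes. The median log2 fold change of the 9 was 0.55, and that of all tested genes was 0.00. Hey1 and Heyl reached the minimum count of 10 in all 3 libraries of JAG2KO only, so they were testable through the group in which they are high. The shares therefore describe the list and support nothing by themselves.

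**Figure D1:**
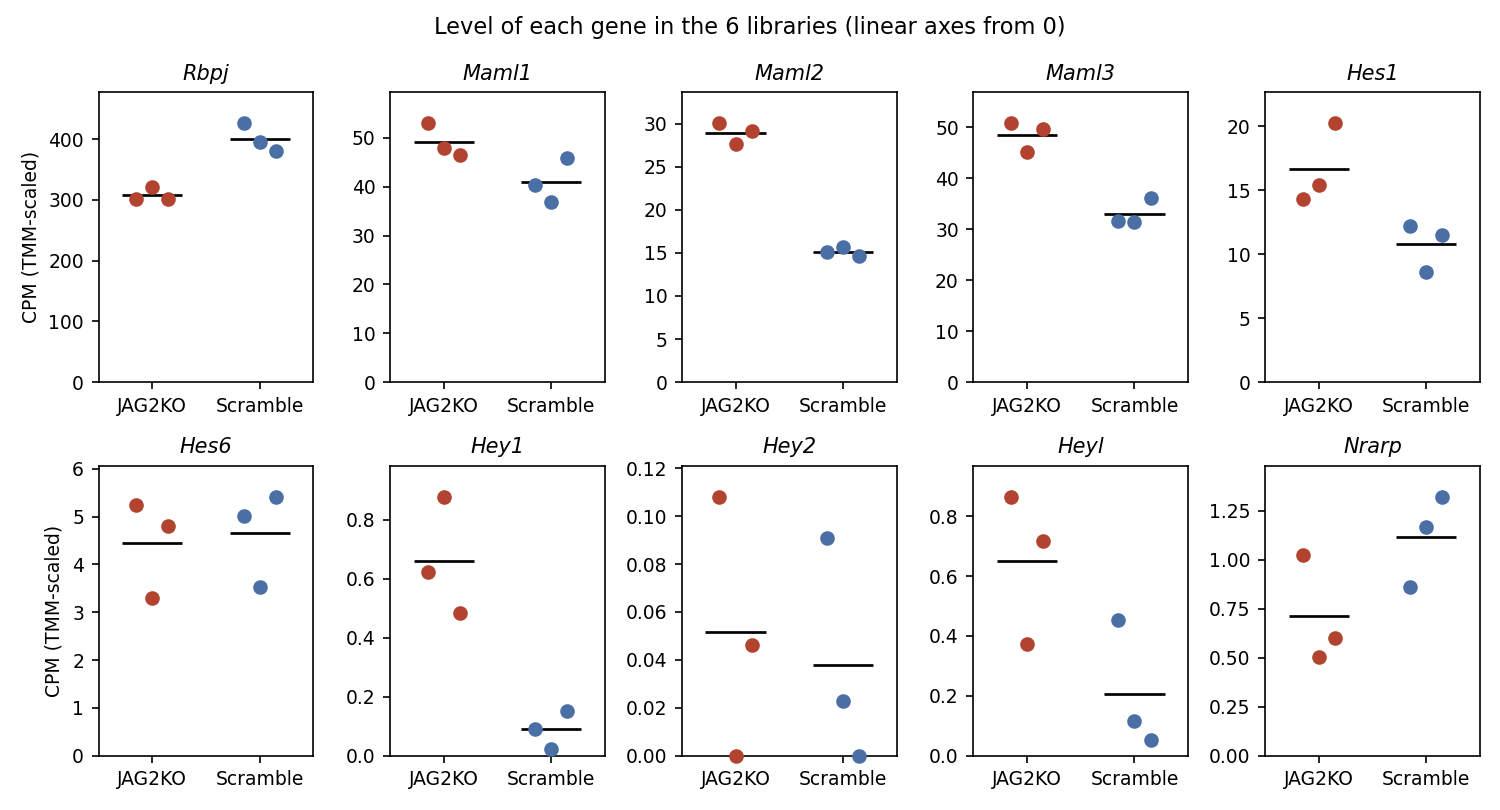
CPM of each of the 10 genes, 1 point per library, with JAG2KO left of Scramble and a black line at the group mean, on linear axes that start at 0. Rbpj lies between 302 and 322 CPM in JAG2KO, below all Scramble libraries, while Maml2 at 27.6 to 30.1 CPM and Hes1 at 14.3 to 20.2 CPM in JAG2KO lie above all Scramble libraries.

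Rbpj, the only DNA-binding member of the complex, fell in JAG2KO. It measured 302, 322 and 302 CPM in JagKO2, JagKO3 and JagKO4, against 426, 395 and 380 CPM in Scramble replicates 1, 2 and 3. All JAG2KO libraries lay below all Scramble libraries. The log2 fold change came to -0.38 with an SE of 0.06, or 0.77 of the Scramble level (edgeR adjusted p = 0.00134). The call held in each of the 13 alternative fits, with log2 fold changes of -0.43 to -0.32. The gene (ENSMUSG00000039191.12, protein coding) lies on the plus strand of chromosome 5, 53466152 to 53657362 in GRCm38. A processed pseudogene, Rbpj-ps3, held 859 counts over the 6 libraries, against 36336 counts for Rbpj in JAG2KO and 50971 in Scramble, and how reads shared with that copy were assigned is not stated. Rbpjl, a tissue-restricted relative of Rbpj, held 25 counts in all.

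Of the Mastermind coactivators, Maml2 and Maml3 rose in JAG2KO, and Maml1 did not pass the threshold. Maml2 measured 30.1, 27.6 and 29.1 CPM in JagKO2, JagKO3 and JagKO4, against 15.1, 15.7 and 14.6 CPM in Scramble replicates 1, 2 and 3. Every JAG2KO library was well above every Scramble library, and the log2 fold change came to 0.94 with an SE of 0.09, or 1.91-fold (edgeR adjusted p = 1.93e-05). The gene (ENSMUSG00000031925.17) lies on chromosome 9, 13297957 to 13709388, plus strand, in GRCm38. Maml3 measured 50.8, 45.1 and 49.7 CPM in JAG2KO, against 31.6, 31.4 and 36.2 CPM in Scramble. These groups did not overlap either, and the log2 fold change came to 0.55 with an SE of 0.09 (edgeR adjusted p = 0.000674). Maml3 (ENSMUSG00000061143.15) spans 51685907 to 52105076 on the minus strand of chromosome 3. Maml1 (ENSMUSG00000050567.16; chromosome 11, 50255634 to 50292311, minus strand), the family member with the highest level per exon length here, measured 53.0, 47.9 and 46.5 CPM in JAG2KO, against 40.3, 36.9 and 45.8 CPM in Scramble. Its groups did not overlap, though Scramble replicate 3 came close to JagKO4, and its log2 fold change of 0.26 with an SE of 0.09 missed the threshold (edgeR adjusted p = 0.0596). It passed without a low-count filter, with a filter of CPM 1 in 3 libraries, with DESeq2 and without Scramble replicate 3 (adjusted p = 0.0191, 0.0444, 0.0369 and 0.028), and across the 13 alternatives the adjusted p lay between 0.0191 and 0.206. The calls of Maml2 and Maml3 held in all 13 alternative fits. The antisense model Gm26542, with 166 counts over all libraries, overlaps 135 bases of Maml1 exons, and the sources used here do not say whether counting used the strand.

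Set against each other per kilobase of exon, the coactivator sum was nearer to the Rbpj level in JAG2KO than in Scramble. The 3 Mastermind genes together reached 19.0, 17.2 and 17.6 CPM per kilobase in JagKO2, JagKO3 and JagKO4, against 12.6, 12.1 and 13.96 in Scramble replicates 1, 2 and 3. Their sum divided by the Rbpj level per kilobase was 0.802, 0.679 and 0.742 in JAG2KO, and 0.376, 0.389 and 0.468 in Scramble. The ratio was higher in each JAG2KO library than in each Scramble library, which follows from the higher sums and lower Rbpj levels and is no further result. Within the Mastermind sum, Maml2 made up 24.0% to 25.1% in JAG2KO and 15.9% to 19.7% in Scramble, while Maml1 made up 47.9% to 50.5% in JAG2KO and 55.4% to 59.4% in Scramble. These are RNA ratios, and the exon length counted may differ from the transcripts these cells use.

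**Figure D2:**
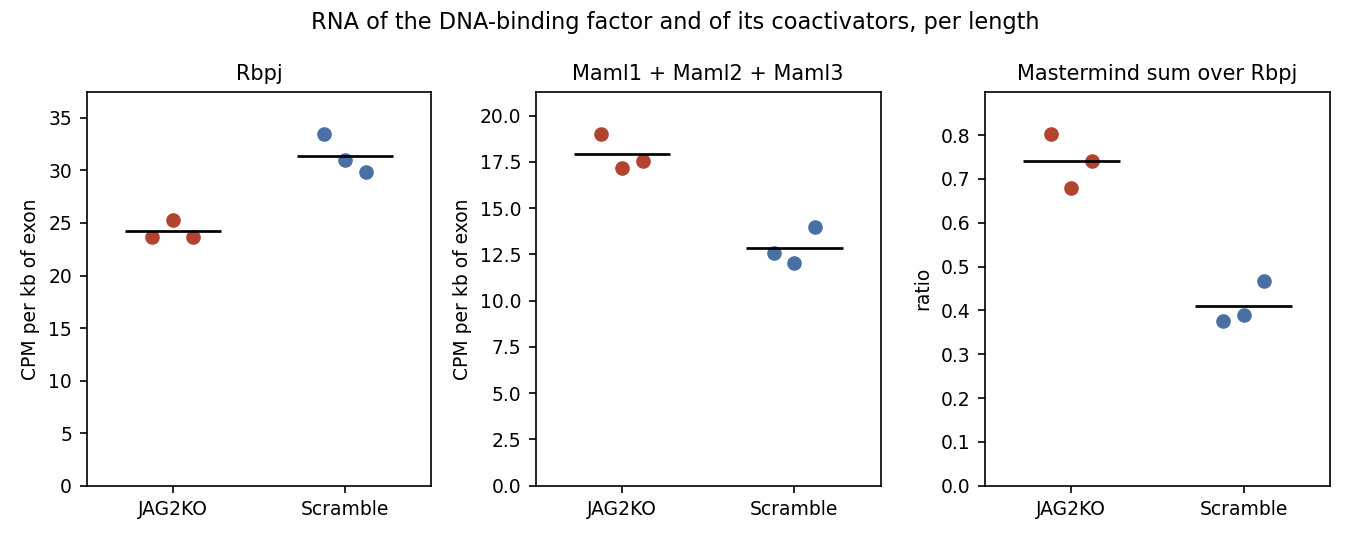
Level per kilobase of exon of Rbpj and of the sum of Maml1, Maml2 and Maml3, and the ratio of that sum to Rbpj, 1 point per library with a line at the group mean. The ratio lies between 0.679 and 0.802 in JAG2KO and between 0.376 and 0.468 in Scramble.

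RefSeq promoter windows (GRCm38.p6, 250 bases before to 50 after a start site) were found for 7 of the 10 genes, in 10 windows. Shown are the upstream parts for Rbpj, Maml2 and Maml3, whose RNA differed between the groups, and for Hey2, the one member whose window held the longer RBPJ form. Hes1, Hey1 and Heyl had no window and were not searched. Capitals mark the RBPJ core TGGGAA, or TTCCCA where it lies on the other strand, and in Hey2 the longer form GTGGGAA or TTCCCAC.
Rbpj (chr5:53590096-53590345, plus strand): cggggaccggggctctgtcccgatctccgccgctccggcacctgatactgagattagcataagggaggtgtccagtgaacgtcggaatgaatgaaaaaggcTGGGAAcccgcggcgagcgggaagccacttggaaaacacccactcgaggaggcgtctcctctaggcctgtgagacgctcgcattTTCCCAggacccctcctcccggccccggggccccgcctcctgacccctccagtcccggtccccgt
Maml2 (chr9:13297708-13297957, plus strand): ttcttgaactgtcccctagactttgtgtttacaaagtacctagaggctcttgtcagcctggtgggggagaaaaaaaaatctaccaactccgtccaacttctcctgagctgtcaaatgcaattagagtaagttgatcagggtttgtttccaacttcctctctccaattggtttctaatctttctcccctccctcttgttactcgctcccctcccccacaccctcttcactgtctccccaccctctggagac
Maml3 (chr3:52105007-52105256, minus strand): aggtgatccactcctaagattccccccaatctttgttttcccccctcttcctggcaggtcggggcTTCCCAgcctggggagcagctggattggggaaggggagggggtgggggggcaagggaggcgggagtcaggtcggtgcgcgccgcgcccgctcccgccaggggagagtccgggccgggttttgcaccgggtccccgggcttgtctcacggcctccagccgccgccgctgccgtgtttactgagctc
Hey2 (chr10:30842781-30843033, minus strand): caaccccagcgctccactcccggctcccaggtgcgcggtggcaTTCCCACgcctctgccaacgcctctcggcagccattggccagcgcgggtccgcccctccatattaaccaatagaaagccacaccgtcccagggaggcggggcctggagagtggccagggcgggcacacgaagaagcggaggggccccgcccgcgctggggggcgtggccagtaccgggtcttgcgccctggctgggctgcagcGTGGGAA

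The search covered both strands of each 300-base window. The core TGGGAA was present in 25.6% of all 32851 mouse windows and GTGGGAA, which contains the core, in 6.38%. Hey2 had GTGGGAA at -207 to -201 on the strand opposite to the gene, where the printed sequence reads TTCCCAC, and at -4 to 3 on the gene's own strand, counted from 1 at the start base with no 0. The Rbpj window printed above had the core at -149 to -144 and at -65 to -60. Both Rbpj windows, at starts 53590346 and 53590486, lie inside the gene and not at its first annotated base. The second window, not printed, held the same bases as the latter match, there at -205 to -200. Maml3 had the core once, at -185 to -180. The Maml2 window printed above lacked the core, and a window at an internal start of the gene (13662460) had it at -145 to -140. The windows of Maml1, Hes6 and Nrarp lacked it. Nrarp had instead the E box CACGTG at -108 to -103, found in 7.15% of all windows, and the N box CACNAG, a letter pattern read by Hes proteins and present in 42.5% of windows, at 2 places. The N box also lay in a Hes6 window, at -237 to -232 and 16 to 21, and in the Maml2 window printed above, at -193 to -188. These matches are letters in a window, and whether RBPJ binds them in these cells or bears on the RNA levels was not tested. Which start site the cells use does not show in counts per gene.

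Hes1, a repressor that Notch induces in many tissues and that represses its own gene, rose in JAG2KO. It measured 14.3, 15.4 and 20.2 CPM in JagKO2, JagKO3 and JagKO4, against 12.2, 8.63 and 11.5 CPM in Scramble replicates 1, 2 and 3. All JAG2KO libraries lay above all Scramble libraries, with JagKO4 the highest and Scramble replicate 2 the lowest. The log2 fold change came to 0.63 with an SE of 0.16, or 1.55-fold (edgeR adjusted p = 0.0154). Hes1 (ENSMUSG00000022528.8) spans 30064384 to 30067796 on the plus strand of chromosome 16. The call ended without JagKO4 (log2 fold change 0.46, adjusted p = 0.0796) or without Scramble replicate 2 (0.50, adjusted p = 0.0623), and across the 13 alternatives the adjusted p lay between 5.5e-05 and 0.0796. Hes6 (ENSMUSG00000067071.8; chromosome 1, 91411483 to 91414038, minus strand), which unlike Hes1 is known to act against Hes1 and to favour differentiation, measured 5.25, 3.30 and 4.80 CPM in JAG2KO, against 5.01, 3.53 and 5.42 CPM in Scramble. The groups overlapped, and the log2 fold change came to -0.06 with an SE of 0.23 (edgeR adjusted p = 0.877).

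The Hey genes, whose products are known above all from blood vessels and the heart, were low in every library. Hey1 (ENSMUSG00000040289.8; chromosome 3, 8663359 to 8667256, minus strand) measured 0.622, 0.878 and 0.485 CPM in JagKO2, JagKO3 and JagKO4, against 0.0907, 0.0229 and 0.153 CPM in Scramble replicates 1, 2 and 3. In counts this was 23, 33 and 21 in JAG2KO and 4, 1 and 6 in Scramble. All JAG2KO libraries lay above all Scramble libraries, and the log2 fold change came to 2.87 with an SE of 0.67 (edgeR adjusted p = 0.00871). Since it entered the test through its JAG2KO counts, a difference was built into its being tested, and the call is given as a description. The ratio of the summed counts, 77 against 11, scaled to library totals was 7.57 (95% exact binomial interval 4.003 to 15.8, covering counting error only). Hey1 kept its call in every fit that tested it, with log2 fold changes of 2.43 to 3.46, the highest of them without Scramble replicate 3, and it fell below a filter of CPM 1 in 3 libraries.

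Heyl (ENSMUSG00000032744.4; chromosome 4, 123233556 to 123249875, plus strand), which is also expressed in vascular mural cells, measured 0.865, 0.373 and 0.716 CPM in JAG2KO, against 0.453, 0.115 and 0.0509 CPM in Scramble. JagKO3 lay below Scramble replicate 1, so the groups overlapped, and the log2 fold change of 1.63 with an SE of 0.71 did not pass (edgeR adjusted p = 0.119). Without Scramble replicate 1, which held 20 of the 27 Scramble counts, the log2 fold change was 2.92 and passed (edgeR adjusted p = 0.0283), while across all alternatives the adjusted p lay between 0.0283 and 0.304. Hey2 (ENSMUSG00000019789.9; chromosome 10, 30832359 to 30842801, minus strand) had 4, 0 and 2 counts in JagKO2, JagKO3 and JagKO4, and 4, 1 and 0 counts in Scramble replicates 1, 2 and 3. Its 3-count limit was 0.0799 CPM in JagKO3 and 0.0763 CPM in Scramble replicate 3, the libraries with 0 counts, so a difference was not detectable at this depth.

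Nrarp (ENSMUSG00000078202.3; chromosome 2, 25180758 to 25183339, plus strand) measured 1.03, 0.506 and 0.600 CPM in JagKO2, JagKO3 and JagKO4, against 0.861, 1.17 and 1.32 CPM in Scramble replicates 1, 2 and 3. JagKO2 lay above Scramble replicate 1, and the log2 fold change of -0.65 with an SE of 0.41 did not pass the threshold (edgeR adjusted p = 0.279). Its counts summed to 83 in JAG2KO and 141 in Scramble. The opposite-strand model Gm38287 overlaps 2051 of the 2582 exon bases of Nrarp and held 0 counts, so the Nrarp level depends on how overlapping reads were counted and is uncertain.

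Per kilobase of exon, Rbpj was the most abundant of the 10 in both groups, at 24.2 ± 0.913 CPM per kilobase in JAG2KO and 31.4 ± 1.85 in Scramble (SD, n = 3 each). Maml1 followed at 8.89 ± 0.621 in JAG2KO and 7.42 ± 0.813 in Scramble, and then Hes1 at 8.18 ± 1.55 in JAG2KO and 5.29 ± 0.935 in Scramble. In JAG2KO the libraries of Maml1 and Hes1 overlapped, and so did those of Maml3 and Maml2 at 4.63 and 4.38. In Scramble, Maml3, Hes6 and Maml2 overlapped in turn at 3.15, 2.57 and 2.29. Nrarp stood well below them at 0.275 in JAG2KO and 0.433 in Scramble. Hey1, Heyl and Hey2 had the lowest means, at 0.203, 0.127 and 0.0112 in JAG2KO and 0.0272, 0.0404 and 0.00825 in Scramble, and the Scramble libraries of all 3 overlapped in turn. In JAG2KO the libraries of Nrarp and Hey1 overlapped, and so did those of Hey1 and Heyl. Hes1 made up 68.1% to 77.7% of the summed Hes and Hey level per kilobase in JAG2KO and 64.8% to 68.0% in Scramble.

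Because whole chromosome segments can shift together in a cell line, each gene was set beside its 14 nearest tested neighbours, 7 on each side. For Rbpj on chromosome 5 the neighbours had a median log2 fold change of 0.11, with 1 called higher and 1 lower, and Rbpj lay 0.48 under that median (difference -0.48). The adjacent tested genes, Gm45495 and Tbc1d19, had log2 fold changes of -0.75 and -0.28 and were not called. For Maml2 on chromosome 9 the median was -0.07, with 1 neighbour higher and 5 lower, and Maml2 lay 1.01 above it, between Ccdc82 (log2 fold change 0.24, called higher) and Mtmr2 (-0.14, not called). For Hes1 on chromosome 16 the median was -0.01 and 13 of the 14 neighbours had a smaller log2 fold change than Hes1. The adjacent genes Gm26569 and Lrrc15 had 0.60 and 0.12 and were not called.

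Maml3 did not stand apart in this way. Its 14 neighbours on chromosome 3 had a median log2 fold change of 0.52, with 3 called higher and 0 lower, and 7 of the 14 lay above Maml3, which differed from the median by 0.03. Apart from Mgst2 (0.68, called higher), those above Maml3 were gene models without a call. The other neighbours with gene names lay lower. Setd7 and Lhfp, called higher, had 0.24 and 0.19, and Rab33b, Foxo1 and Cog6, not called, had 0.18, 0.01 and -0.08. These neighbours were named after their values were seen. The adjacent models Gm10729 and Gm30074 had 0.65 and 0.92 and were not called. Both were low, with group means of at most 0.963 CPM. The midpoint of Gm10729 lies 201 kb from that of Maml3, inside the Maml3 span, so Gm10729 is not a separate stretch of the chromosome. Over 5 Mb on each side the median of 41 neighbours was 0.25 and the difference 0.31. On chromosome 3 as a whole 200 of 829 other tested genes were called higher and 41 lower, so the rise of Maml3 cannot be told apart here from a shift of its segment. Hey1 lies on the same chromosome, where its neighbours had a median of 0.19 with 4 called higher and 1 lower. None of those 14 had a log2 fold change above that of Hey1, and 4 of the 829 did. The adjacent genes of Hey1 were Gm16685, called higher with 1.82, and Mrps28, with 0.16 and no call. Chromosome 5, with Rbpj, leaned lower, with 86 of 1051 tested genes called higher and 158 lower.

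The neighbours of the genes without a call were mixed. Maml1 lay 0.26 above the median of its neighbours, between Gm26542 (0.03) and Canx (-0.07), and Heyl lay 1.60 above, between Ppie (-0.13) and Pabpc4 (-0.02), all 4 of them not called. Hes6 lay 0.16 above a median of -0.23, beside Ilkap, called lower with -0.22, and Per2, with -0.35 and no call. Nrarp differed from its neighbours' median by -0.57, with Gm13387 at 1.65 and no call on one side and Tor4a, called lower with -0.31, on the other. The adjacent genes of Hey2, Gm5171 and Gm5422, had -0.14 and -0.57 and were not called.

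**Figure D3:**
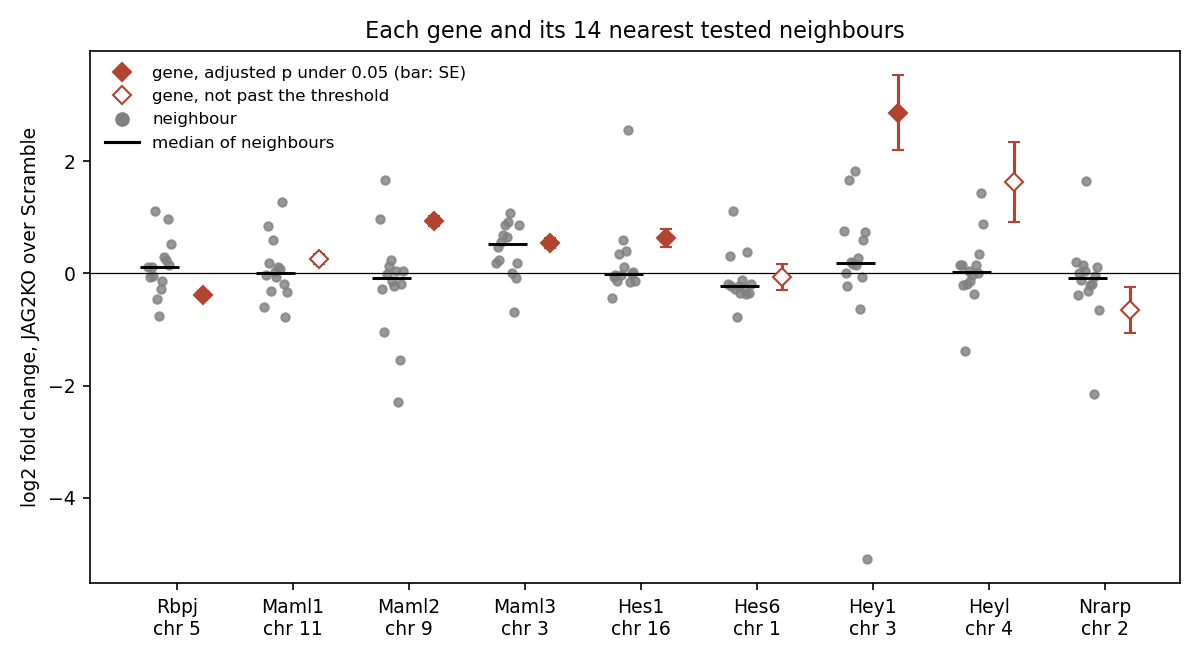
Log2 fold change, JAG2KO over Scramble, of the 9 tested genes (diamonds with their SE, filled where called) beside their 14 nearest tested neighbours (grey points, black line at the median). Maml3 lies 0.03 from the median of its neighbours, while Maml2 lies 1.01 above and Rbpj 0.48 below theirs.

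Hes1, Hey1 and Heyl are also expressed by blood vessel cells, so marker genes of other cell types were summed in the same libraries, although the sort on GFP should remove host cells of every type. Of 10 pericyte and smooth muscle markers 7 were higher in JAG2KO and 0 lower, and their sum was 131 to 184 CPM in JAG2KO and 70.5 to 91.7 CPM in Scramble. Beside these marker counts and those that follow, 11.8% of all tested genes were higher and 12.5% lower. Rgs5 averaged 29.0 ± 8.87 CPM in JAG2KO and 7.55 ± 1.35 CPM in Scramble, and Myh11 2.78 ± 0.505 CPM in JAG2KO and 0.396 ± 0.173 CPM in Scramble (SD, n = 3 each). Of 14 endothelial markers 8 were higher and 1 lower. Their sum was 124 to 149 CPM in JAG2KO and 134 to 137 CPM in Scramble, of which Eng alone, the gene that was lower, made 63.4 to 85.2 CPM in JAG2KO and 98.0 to 104 CPM in Scramble. Vwf averaged 4.66 ± 0.675 CPM in JAG2KO and 1.35 ± 0.224 CPM in Scramble, Cdh5 13.4 ± 1.71 CPM in JAG2KO and 7.59 ± 0.281 CPM in Scramble, and Pecam1 14.3 ± 3.81 CPM in JAG2KO and 6.37 ± 1.16 CPM in Scramble. Eng was named after its values were seen. No marker of either list was at 0 counts in all libraries. Their part in the rise of Hes1 and Hey1 was not tested, and in bulk RNA more cells of a type and more RNA per cell cannot be told apart.

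Among markers of blood cells, which the CD45 gate should remove as well, 4 of 12 macrophage markers were higher and 0 lower, with sums of 103 to 122 CPM in JAG2KO and 61.4 to 71.0 CPM in Scramble. The shares over all tested genes were 11.8% higher and 12.5% lower. Lyz2, C1qb and Mrc1 rose, with log2 fold changes of 1.16, 0.84 and 0.64, of which that of Mrc1 lost its call without JagKO4, Scramble replicate 2 or Scramble replicate 3 (edgeR adjusted p = 0.0681 to 0.0689, and 0.00528 to 0.0689 across the alternatives). The 8 T cell markers summed to 1.27 to 3.73 CPM in JAG2KO and 1.93 to 2.63 CPM in Scramble, with 0 of 4 tested called by edgeR; the one with the smallest p, Trac, had an unadjusted p of 0.255. Of 10 markers of fibroblasts, which the GFP gate but not the CD45 gate should remove, 5 were higher and 1 lower, with sums of 6290 to 9945 CPM in JAG2KO and 4964 to 5056 CPM in Scramble. The highest sum was that of JagKO2, and JagKO3 and JagKO4 had 6745 and 6290 CPM. Col3a1 alone made the larger part of these sums, at 5623 ± 1393 CPM in JAG2KO and 3616 ± 122 CPM in Scramble (SD, n = 3 each). Fap fell, with a log2 fold change of -2.40, while Cxcl12 and Col3a1 rose with 3.28 and 0.64, and Cxcl12 reached 3.92 without Scramble replicate 3.

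**Figure D4:**
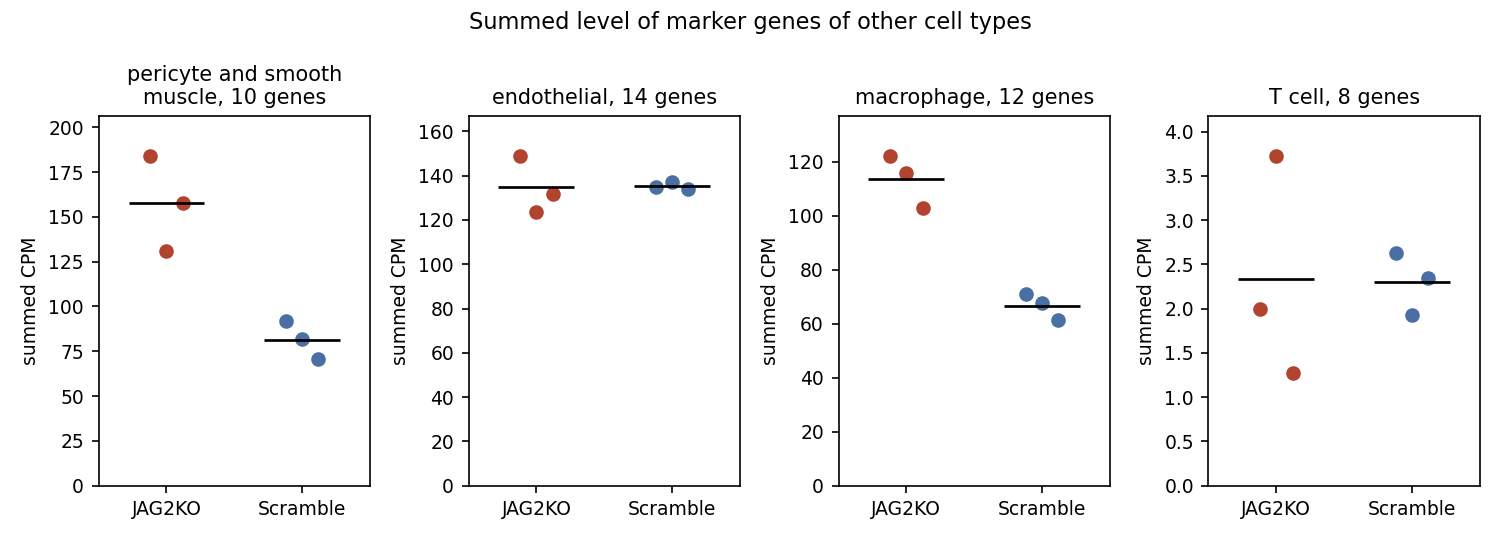
Summed CPM of marker lists of other cell types, 1 point per library with a line at the group mean. The pericyte and smooth muscle sum is 131 to 184 CPM in JAG2KO and 70.5 to 91.7 CPM in Scramble, while the endothelial sums of the groups overlap.

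Other genes of the pathway, in 6 lists by role, held 64 tested genes, of which 19 were higher in JAG2KO and 8 lower. Of all 16049 tested genes 11.8% were higher and 12.5% lower, and the list counts of the reported fit, here and below, stand beside these shares. List counts from alternative fits do not, since calls over all genes also differed between fits. The lower calls among the 64 were at about the share of all tested genes. The count of higher calls was 12 without JagKO3 and 12 without JagKO4. Over all genes, 1712 of 16667 tested were called higher without JagKO3 and 1376 of 16390 without JagKO4, against 1891 of 16049 in the reported fit. Among Notch receptors and ligands 4 of 9 were higher and 2 lower, and the median (log2) was 0.69. The receptor genes Notch2, Notch4 and Notch3 rose by 0.69, 1.41 and 1.90 on the log2 scale, with edgeR adjusted p-values of 2.01e-05, 0.000306 and 0.000503. Notch4 and Notch3 were low, averaging 6.06 and 6.55 CPM in JAG2KO and 2.28 and 1.76 CPM in Scramble. Which cells in the libraries their RNA comes from was not tested. Named after their values were seen, the ligand gene Dll4 rose by 1.58, and Dll1 and Jag1 fell by 1.01 and 0.75. Their edgeR adjusted p-values were 0.00462, 0.00181 and 0.0448, with that of Jag1 close to the threshold. The count of 2 lower was 1 without JagKO3, JagKO4, Scramble replicate 1 or Scramble replicate 2. Among RBPJ-associated corepressors, a list that includes subunits of their complexes and not only proteins that bind RBPJ, 3 of 17 were higher and 0 lower. Their median was 0.04. Without JagKO4, Scramble replicate 2 or Scramble replicate 3, 1 was higher, and without Scramble replicate 1, 1 was lower. Kdm5a, a histone demethylase known to work with RBPJ, measured 95.5, 94.8 and 93.2 CPM in JagKO2, JagKO3 and JagKO4, against 70.6, 65.5 and 66.9 CPM in Scramble replicates 1, 2 and 3 (log2 fold change 0.48, edgeR adjusted p = 0.000188). Fhl1 rose by 1.57 and the NCoR complex gene Tbl1xr1 by 0.28, both on the log2 scale, with edgeR adjusted p-values of 0.0217 and 0.0282. Fhl1 was low and its groups overlapped, with 1.06 CPM in JagKO3 and 1.11 CPM in Scramble replicate 1. The call of Fhl1 ended without JagKO4, Scramble replicate 2 or Scramble replicate 3 and with limma-voom (adjusted p = 0.0544 to 0.103). That of Tbl1xr1 ended in 5 alternatives, which were removal of GC and length trends and the omission of JagKO3, of JagKO4, of Scramble replicate 2 and of Scramble replicate 3 (adjusted p = 0.0652 to 0.178). Across the 13 alternatives the adjusted p lay between 0.000215 and 0.103 for Fhl1 and between 0.00502 and 0.178 for Tbl1xr1.

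Among nuclear coactivators and turnover genes 5 of 12 were higher and 1 lower, with a median of 0.19. Higher calls numbered 2 without JagKO3, without Scramble replicate 3 or with GC and length trends removed, and 3 without JagKO4, Scramble replicate 1 or Scramble replicate 2. The Mediator kinase gene Cdk19 averaged 45.8 ± 3.26 CPM in JAG2KO and 30.2 ± 2.22 CPM in Scramble (log2 fold change 0.60, edgeR adjusted p = 0.000416), and the Mediator gene Med12 had 0.30 (edgeR adjusted p = 0.00989). Snw1, whose product binds RBPJ and the Notch intracellular domain, fell by 0.27 (log2), with an edgeR adjusted p of 0.0188. Snw1 lost its call on omission of JagKO3, of JagKO4, of Scramble replicate 1 and of Scramble replicate 2, at adjusted p-values of 0.0687 to 0.0835, so that 0 of the list were lower there, and across the alternatives the adjusted p lay between 0.00162 and 0.0835. Med12 lost it when GC and length trends were removed (adjusted p = 0.117, and 0.000506 to 0.117 across the alternatives).

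The Groucho and TLE corepressors, which Hes proteins recruit, differed in both directions, with 2 of 6 higher and 1 lower and a median of -0.10. The lower count was 2 without Scramble replicate 2 and 2 with no filter. Tle1 measured 42.2, 47.1 and 39.1 CPM in JagKO2, JagKO3 and JagKO4, against 80.1, 69.2 and 85.8 CPM in Scramble replicates 1, 2 and 3 (log2 fold change -0.87, edgeR adjusted p = 4.6e-05). Tle2 measured 24.4, 21.6 and 18.4 CPM in JAG2KO, against 12.04, 12.8 and 10.8 CPM in Scramble (log2 fold change 0.85, edgeR adjusted p = 0.000474). Neither gene's groups overlapped. Tle3 rose by 0.24 (log2) with an edgeR adjusted p of 0.0263, a call that ended without JagKO3, JagKO4, Scramble replicate 1 or Scramble replicate 3 and with removal of GC and length trends (adjusted p = 0.0603 to 0.60, and 0.0122 to 0.60 across the alternatives), which left 1 of the list higher.

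Of the 7 other Hes-related repressor genes, Hes2, Hes5 and Helt had 0 counts in all libraries and 3 were tested. Bhlhe41 fell by 0.48 (log2) with an edgeR adjusted p of 0.00854, at 12.1 ± 0.853 CPM in JAG2KO and 16.8 ± 0.898 CPM in Scramble. Bhlhe40, a hypoxia- and clock-linked relative of the Hes genes, measured 119, 229 and 189 CPM in JAG2KO, against 123, 122 and 122 CPM in Scramble. JagKO2 lay below all Scramble libraries, and the call (edgeR adjusted p = 0.0335) ended in 7 of the 13 alternatives, among them each omission of a Scramble replicate, of JagKO3 and of JagKO4 (adjusted p = 0.0526 to 0.128, and 1.74e-12 to 0.128 across the alternatives), which left 0 of the list higher. Among 20 tested genes reported elsewhere as Notch targets, 6 were higher and 3 lower, with a median of 0.23. Without JagKO2 the counts were 9 higher and 6 lower, and with DESeq2 8 higher and 5 lower. Over all genes, 1926 of 16717 tested were higher and 2093 lower without JagKO2. With DESeq2, 2155 of 16049 were higher and 2105 lower. Pdgfrb and Acta2, which also stand in the mural cell list, rose by 0.82 and 0.54 on the log2 scale, with edgeR adjusted p-values of 0.000384 and 0.00143. Notch3 and Dll4, both higher, and Notch1, not called, stand in the receptor and ligand list too, so the counts of these lists are not independent. The lower ones, named after their values were seen, were Snai2, Efnb2 and Cd44.

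**Figure D5:**
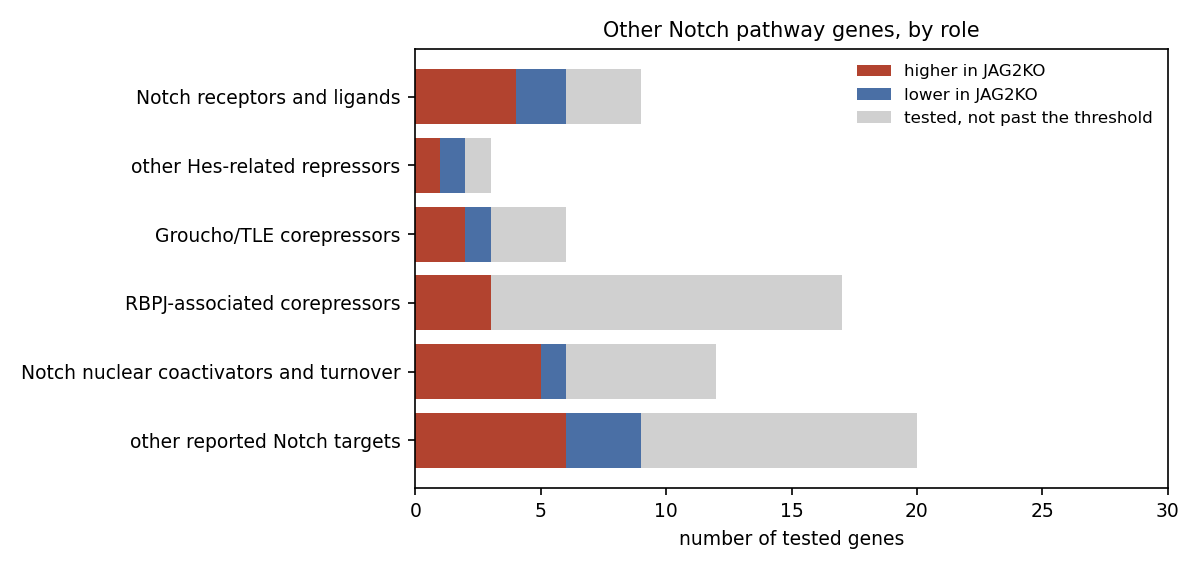
Number of tested genes in each list of other Notch pathway genes that were higher in JAG2KO, lower in JAG2KO or not past the edgeR threshold. All lists except the RBPJ-associated corepressors, with 3 higher and 0 lower of 17, have calls in both directions.

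As a description of pattern, the genes most like Rbpj, Hes1, Hey1 and Maml2 over the 6 libraries were sought by Pearson's r of log2 CPM among genes with a symbol that averaged 2 CPM or more. Closest to Rbpj were Ccdc14 (r = 0.999) and Pak2 (r = 0.998), both on chromosome 16 and both lower in JAG2KO. Closest to Hes1 were Dcaf17 (r = 0.992) and Parp2 (r = 0.987), neither of them called. Closest to Hey1 were Prkca (r = 0.995) and Plagl1 (r = 0.994), and closest to Maml2 were Gprc5b and Rundc3a (r = 0.999 for both), all 4 of them higher in JAG2KO. Such values were common: 1032 of 10736 genes reached r = 0.9 with Rbpj, 1080 with Maml2 and 190 with Hes1, and 677 of 10737 with Hey1. The 6 points share the 2 groups, and a difference between the groups enters each r.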

How the data were processed

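Sorted LLC tumour cells gave 6 polyA RNA libraries, 3 JAG2KO and 3 Scramble. What the authors deposited are counts, whole numbers for each gene in each library. The submitters' processing notes list STAR 2.7.7a and HTSeq 0.11.2 but no settings. The sources used here do not give the genome build, annotation, strand setting or read filters. Scramble columns carry the titles' numbers. JAG2KO columns run from 2 to 4 and titles from 1 to 3, so those libraries go by column name and have no replicate number.

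A symbol was found for 55154 of 55334 gene IDs, through the stable ID; rows without one held 0.00193% of counts. GENCODE M21 (GRCm38) gave coordinates and exon lengths, and the authors may have counted on another annotation. Tle5 was matched under its former name Aes. Low-count genes were removed with filterByExpr (counts of 10, total of 15), sizes were scaled by TMM, and JAG2KO was set against Scramble in edgeR 4.0.16 (R 4.3.3) with the quasi-likelihood F test, leaving 4 residual degrees of freedom. Adjustment was by Benjamini-Hochberg over all tested genes. The SE is the log2 fold change over the square root of F. The code was tested on simulated data, where false calls exceeded the nominal share with edgeR and more so with DESeq2, so calls near the threshold are less certain. Chi-square per degree of freedom between libraries of a group was 12.2 to 31, so none was treated as a repeat of another.

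As alternatives, DESeq2 1.42.0, limma-voom (limma 3.58.1), RLE scaling, unscaled library totals, no filter, a cutoff of CPM 1 reached in 3 libraries, removal of trends on GC content and transcript length, and omission of each library were run. The genes and lists were chosen with earlier results of these data known. The rule for names took all 10 genes, the adjacent tested genes, up to 3 called genes with the smallest p from each other list (the 1 with the smallest p where none was called), and the 2 genes most like Rbpj, Hes1, Hey1 and Maml2.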

Additional observations from a re-analysis of the deposited data

How the results depend on the processing

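Over the 13 alternatives, 3 to 5 of the 10 genes were called higher (4 as reported) and Rbpj was the 1 called lower in each. Hes6, never called, had log2 fold changes of -0.22 to 0.11 with single libraries left out, including 0.11 without JagKO3, 0.06 without Scramble replicate 3 and 0.00 without Scramble replicate 1. The 64 other pathway genes gave 12 to 24 higher calls with single libraries left out, against 19 as reported. The count was 12 without JagKO3 or JagKO4, 24 without JagKO2 and 13 with GC and length trends removed. Over all genes, higher calls numbered 1926 without JagKO2, 1712 without JagKO3 and 1376 without JagKO4, against 1891 as reported. They numbered 1356 to 1462 with a Scramble replicate left out and 1669 with GC and length trends removed. The cause of these differences was not tested. The median log2 fold change of all genes lay between -0.01 and 0.02 in these alternatives. Hey1, Heyl and Hey2, with at most 77 counts per group, are the genes that depth limits most. No paired analysis was possible because the JAG2KO columns cannot be tied to the replicate numbers of the labels.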
